A study of Mus musculus with 7 samples.

Results

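Open chromatin of the E16 small intestine was set against that of the E16 colon, the 2 ends of the embryonic bowel that the study sampled at the same stage. Overlapping ATAC-seq peaks of the 2 lists on chromosomes 1 to 19 and X were merged into 173679 regions, and each region was classed by the list that held it. Of these, 38754 (22.3%) were intestine-only, 77063 (44.4%) were colon-only and 57862 (33.3%) were shared. When all 7 libraries of the series were merged in the same way there were 326695 regions. The other libraries, used here only to place the regions, were E13 intestine, E13 stomach, E16 forestomach, E16 hindstomach and an E16 stomach with a Sox2 knockout.

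Both libraries were made from untreated ShhCre;R26YFP/+ mouse embryos, in which a Cre under control of the Shh locus switches on a yellow fluorescent reporter in gut epithelium. Per the labels' protocols the stage was E16.5, the intestinal piece was the proximal small intestine, and both organs were placed in 5 mM EDTA in the cold and shaken until epithelium came off. The hindstomach was handled in the same way with 10 mM EDTA, the forestomach was taken apart with dispase, and E13 cells were sorted after trypsin. The protocol text used here ends before it says whether the E16 cells used for ATAC-seq were sorted or how many embryos were pooled, and it does not describe the knockout. There was 1 library per group, so no difference between the organs could be set against a spread between replicates, and no p-value is given. Shares carry 95% Wilson intervals, for counting error alone. Neither read depth nor peak height is in the deposited lists, so depth is unknown. In bulk epithelium a peak that is missing because fewer cells of a type were present cannot be told apart from one that is missing because each cell was less open there.

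ATAC-seq inserts sequencing adapters with a transposase into DNA that nucleosomes leave free, so its peaks mark promoters, enhancers and insulators in use or poised for use. The small intestine forms villi lined by absorptive enterocytes, whose brush border digests food and whose apolipoproteins package dietary fat, whereas the colon recovers water and salt and is rich in mucus-secreting goblet cells. The homeobox factors CDX1 and CDX2 set intestinal identity along the whole bowel, HNF4 factors drive enterocyte genes, GATA4 marks the proximal small intestine, and the posterior Hox genes mark the hindgut.

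The sequences just before 8 gene starts are shown because a peak lay at each of them in 1 list only, or, at Cdx2, in both. Each run holds the 250 bases before the RefSeq start on the GRCm38.p6 build, 5′ to 3′ on the strand of the gene, and capitals mark the bases inside the peak, with peak starts counted from 0, so an edge can be off by 1 base. The first 4 had a peak in E16 intestine only: the apolipoprotein gene Apob (chr12:7977427-7977676, plus strand), the cholesterol uptake gene Npc1l1 (chr11:6230246-6230495, minus strand), the sterol transporter gene Abcg5 (chr17:84683012-84683261, minus strand) and the brush border protease gene Mep1a (chr17:43502774-43503023, minus strand). Cdx2 (chr5:147307250-147307499, minus strand) had overlapping peaks in both. The last 3 had a peak in E16 colon only: the sodium channel subunit gene Scnn1b (chr7:121864788-121865037, plus strand), the goblet cell disulfide isomerase gene Agr2 (chr12:35992675-35992924, plus strand) and the hormone gene Cck (chr9:121495695-121495944, minus strand).
Apob: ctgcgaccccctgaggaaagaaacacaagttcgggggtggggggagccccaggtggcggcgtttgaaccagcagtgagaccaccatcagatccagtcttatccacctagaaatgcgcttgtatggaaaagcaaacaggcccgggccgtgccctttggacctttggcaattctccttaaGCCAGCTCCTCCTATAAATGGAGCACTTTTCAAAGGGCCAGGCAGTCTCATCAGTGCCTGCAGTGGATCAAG
Npc1l1: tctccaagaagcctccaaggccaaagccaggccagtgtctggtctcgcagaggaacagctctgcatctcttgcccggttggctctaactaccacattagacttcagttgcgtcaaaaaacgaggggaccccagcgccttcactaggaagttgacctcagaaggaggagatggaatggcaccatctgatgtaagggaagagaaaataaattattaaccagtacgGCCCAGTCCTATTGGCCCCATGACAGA
Abcg5: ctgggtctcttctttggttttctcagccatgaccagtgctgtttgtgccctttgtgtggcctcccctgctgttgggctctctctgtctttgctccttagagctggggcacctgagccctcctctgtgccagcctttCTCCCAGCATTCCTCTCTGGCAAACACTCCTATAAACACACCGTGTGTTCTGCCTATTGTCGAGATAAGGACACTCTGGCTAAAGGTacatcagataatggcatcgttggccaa
Mep1a: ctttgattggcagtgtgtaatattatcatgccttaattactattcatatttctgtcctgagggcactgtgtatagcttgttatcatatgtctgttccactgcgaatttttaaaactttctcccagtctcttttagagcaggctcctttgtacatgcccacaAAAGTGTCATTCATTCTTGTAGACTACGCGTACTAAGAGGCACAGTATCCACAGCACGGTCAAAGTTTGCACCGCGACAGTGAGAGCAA
Cdx2: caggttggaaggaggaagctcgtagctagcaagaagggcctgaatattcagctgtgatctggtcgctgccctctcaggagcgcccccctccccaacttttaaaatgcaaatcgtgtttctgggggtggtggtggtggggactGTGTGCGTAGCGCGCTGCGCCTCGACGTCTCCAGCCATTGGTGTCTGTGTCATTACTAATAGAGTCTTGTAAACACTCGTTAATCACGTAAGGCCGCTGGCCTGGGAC
Scnn1b: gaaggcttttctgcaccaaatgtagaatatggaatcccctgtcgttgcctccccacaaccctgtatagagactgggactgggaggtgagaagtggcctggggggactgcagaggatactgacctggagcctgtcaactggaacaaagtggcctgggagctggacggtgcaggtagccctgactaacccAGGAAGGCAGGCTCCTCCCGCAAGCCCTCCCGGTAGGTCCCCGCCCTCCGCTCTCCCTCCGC
Agr2: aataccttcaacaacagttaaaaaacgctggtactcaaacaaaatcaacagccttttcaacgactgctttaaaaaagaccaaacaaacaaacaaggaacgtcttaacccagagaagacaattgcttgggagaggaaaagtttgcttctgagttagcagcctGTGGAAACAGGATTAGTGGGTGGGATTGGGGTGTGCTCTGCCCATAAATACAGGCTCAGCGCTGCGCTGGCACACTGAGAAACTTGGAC
Cck: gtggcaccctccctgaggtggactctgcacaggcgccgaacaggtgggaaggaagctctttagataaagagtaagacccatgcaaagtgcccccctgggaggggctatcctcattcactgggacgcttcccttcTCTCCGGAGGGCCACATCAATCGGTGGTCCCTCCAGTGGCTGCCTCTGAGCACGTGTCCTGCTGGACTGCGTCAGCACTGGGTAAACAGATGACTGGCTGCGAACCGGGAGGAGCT
The capitals cover 72 bases at Apob, 27 at Npc1l1, 87 at Abcg5, 89 at Mep1a, 108 at Cdx2 (over both peaks), 62 at Scnn1b, 89 at Agr2 and 116 at Cck. The whole peaks in 1 list only were 129 bp wide at Apob, 118 at Npc1l1, 87 at Abcg5, 131 at Mep1a, 195 at Scnn1b, 137 at Agr2 and 151 at Cck. The width at Abcg5 is the smallest in the E16 intestine list. Among 9 motifs searched as exact letters on both strands, the TATA box TATAAA lay in the capitals of Apob and Abcg5, and the GATA motif GATAAG in those of Abcg5. The HNF1 part GTTAAT lay in the capitals of Cdx2, the SP/KLF motif GGGCGGG in those of Scnn1b and the CDX motif TTTATGG in those of Agr2. Apob also held GATAAG and Npc1l1 GTTAAT outside the capitals, and Mep1a and Cck held none of the motifs in these letters.

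The E16 intestine list held 97568 peaks on chromosomes 1 to 19 and X and the colon list 135743, which is 1.39 times as many. Their median widths were 130 bp and 124 bp, and the smallest widths, 87 bp and 86 bp, were reached by 16.4% and 17.9% of peaks. Of the intestinal peaks, 60.3% overlapped a colon peak, and of the colon peaks 43.2% overlapped an intestinal one. There were thus 1.99 times as many colon-only as intestine-only regions, and intestine-only regions made up 33.5% (33.2 to 33.7) of the unshared ones. Over single chromosomes this share ran from 30.7% to 36.8%, and on X it was 33.1%. At the number of peaks of the shorter list, taking the widest of the colon, 45700 regions were intestine-only, 46028 colon-only and 50916 shared. In the full lists 97.1% of shared regions held 1 peak of each list. With lists of equal number the 2 unshared counts must therefore come out close, whatever the organs. Their near equality was fixed by the trimming and is not a result about the colon excess. Whether that excess follows depth was not tested. Because the colon list is longer, gene counts below are given for all peaks and again at equal number.

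**Figure D1:**
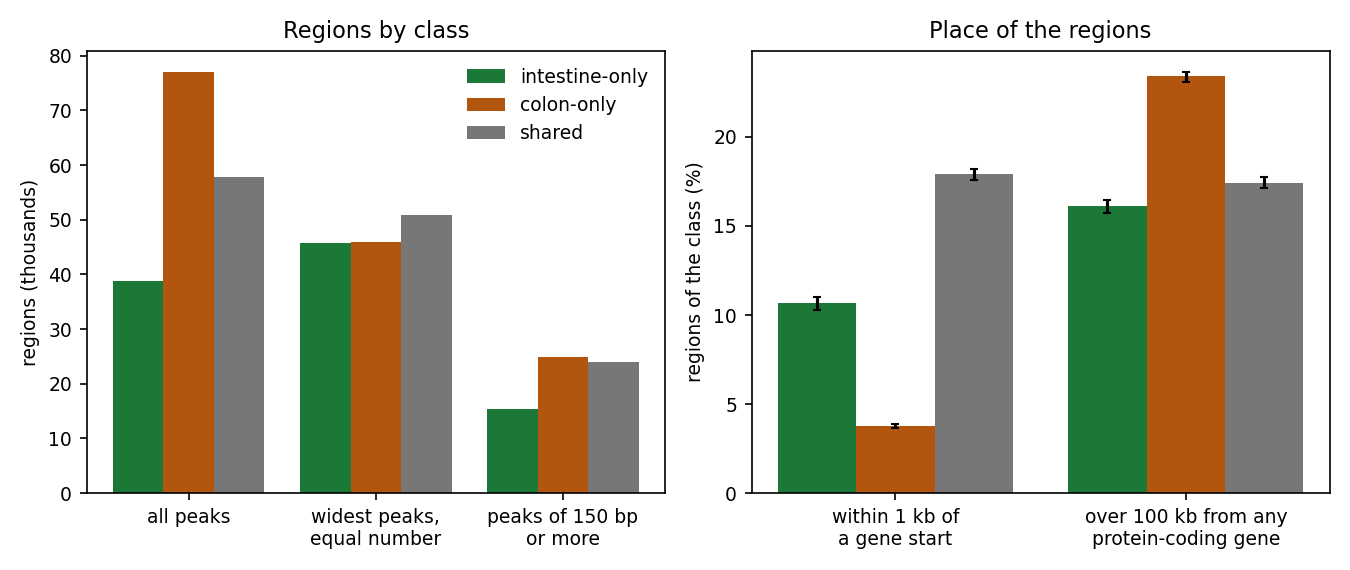
The left panel plots regions (y axis, in units of 1000) by class for all peaks, for the widest peaks at equal number and for peaks of at least 150 bp. The right panel plots the percent of regions of each class within 1 kb of a gene start and over 100 kb from any protein-coding gene, with bars for the 95% Wilson interval: intestine-only regions lay at gene starts in 10.7% and colon-only regions in 3.76%.

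The unshared regions were narrow in both organs. Their median width was 105 bp in either class against 203 bp for shared regions, and widths of at least 150 bp were found in 23.2% of intestine-only, 21.2% of colon-only and 72.1% of shared regions. In the 59632 overlapping pairs of peaks, the median width was 156 bp in intestine and 165 bp in colon, the colon peak was the wider one in 54.4%, and the middles of the peaks lay a median of 21.5 bp apart. Part of the unshared regions had a peak of the other organ close by: within 1000 bp this was so for 19.5% of intestine-only and 10.7% of colon-only regions.

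The 2 organs differed in where their own regions lay. A gene start was within 1 kb of 10.7% (10.3 to 11.0) of intestine-only regions, of 3.76% (3.63 to 3.89) of colon-only regions and of 17.9% (17.6 to 18.2) of shared ones. Conversely, 23.4% (23.06 to 23.65) of colon-only regions lay over 100 kb from any protein-coding gene, against 16.1% (15.74 to 16.47) of intestine-only ones. Gene bodies held 48.1% and 42.3%. Among regions of at least 150 bp the shares at gene starts were 17.6% and 4.99%, and at equal list number the colon-only share was 4.24%, so the order of the 2 organs was the same. Set against the hindstomach, the other epithelium taken with EDTA, both bowel libraries had the lower share at gene starts. It was 4.65% of the regions of intestine alone and 9.40% of those of hindstomach alone in that pair, and 2.53% and 11.7% in the pair of colon and hindstomach. Over all peaks of a list, 15.0% lay at gene starts in intestine and 10.1% in colon.

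Colon-only regions also followed one another in longer runs. Counting consecutive regions of 1 class along a chromosome, with gaps of at most 100 kb, 15.3% of colon-only regions lay in 1965 runs of 5 or more, against 1.22% of intestine-only regions in 86 runs. There were also 1.99 times as many colon-only regions, and the part of that number in the runs was not tested. The longest colon-only runs had 16 regions each: one spanned chr2:47937642-48205464, with no protein-coding gene within 100 kb, and one spanned chr14:29504434-29745526 at Cacna2d3, which encodes a calcium channel subunit. In the second, 3 of the 16 regions had a hindstomach peak and 1 an E13 intestine peak. The next run, of 15 regions, was at the ephrin receptor gene Epha6. The longest intestine-only runs had 9 regions: one was at Macroh2a1, a histone variant gene, and Tifab (chr13:56113674-56167855), and one at Pnpla1, a lipase family gene, and Bnip5 (chr17:28855592-28911951). A run of 8 was at the Hippo kinase gene Lats2 and Xpo4, and one of 7 at Coro1c and Ssh1, both of which act on actin.

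The widest regions of 1 organ were of another kind. The widest intestine-only region, 747 bp, lay in the body of Egr1, an immediate early transcription factor gene, and within 1 kb of an end of it, and none of the 5 other libraries had a peak in it. A region of 659 bp lay 0.433 kb from Muc13, a transmembrane mucin gene, and one of 644 bp lay 85.0 kb from Nrip1, a nuclear receptor corepressor gene. Both of those had peaks in all 5 other libraries. The others were at Sema6d (673 bp), Lama2 (668 bp) and Olfr502 (663 bp). The widest colon-only region, 906 bp, lay 8.61 kb from Rabac1, and one of 858 bp lay in the body of the fatty acid transporter gene Cd36. Those at Ttc39c (831 bp), Dlgap2 (805 bp), Scube1 (790 bp) and Ulk4 (754 bp) followed. Each of these 6 colon-only regions had a peak in at least 1 of the other 5 libraries.

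Most regions of 1 organ only had no peak at E13. A peak of E13 intestine was found in 20.5% (20.1 to 20.9) of intestine-only regions, 8.43% (8.24 to 8.63) of colon-only regions and 36.3% (35.9 to 36.7) of shared ones. The hindstomach of the same stage had a peak in more of each class: 30.0% (29.6 to 30.5), 16.8% (16.6 to 17.1) and 69.4% (69.0 to 69.8). The E13 intestine list is the shortest of the series, with 81179 peaks, and its cells were sorted after trypsin, so the 2 shares cannot be ranked as likeness. In no other library were 54.4% of intestine-only, 71.7% of colon-only and 20.4% of shared regions found. An E13 intestine peak with no stomach peak was found in 2.47% of intestine-only, 2.20% of colon-only and 1.35% of shared regions. Away from gene starts E13 intestine had a peak in 16.6% and 7.14% of the 2 unshared classes and hindstomach in 26.3% and 15.7%, in the same order.

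**Figure D2:**
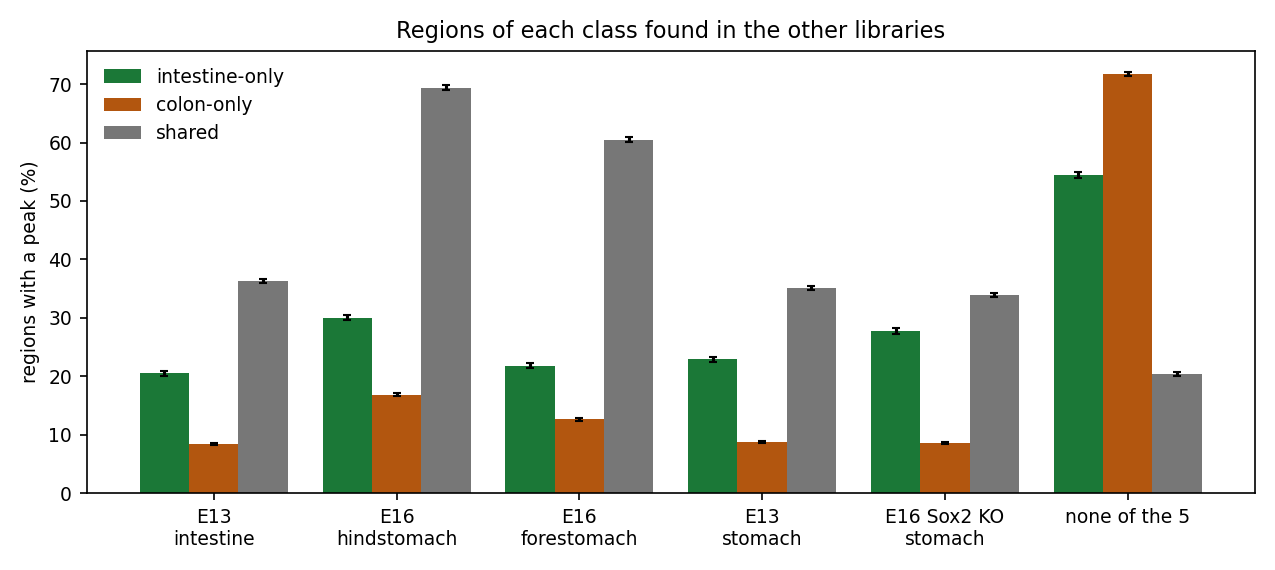
The plot gives the percent of regions of each class (y axis) with a peak in each of the 5 other libraries, or in none of them, with 95% Wilson intervals as bars. In every library the shared regions are highest and the colon-only regions lowest, and 71.7% of colon-only regions are in none of the 5.

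To group regions by gene, each was given to the nearest protein-coding gene within 100 kb, and 19447 of 21631 genes had at least 1 region. A gene was called towards an organ where that organ alone had at least 2 more regions than the other and at least 2 times as many, after 0.5 was added to both. By this rule 1192 genes, 6.13% of those with a region, were called towards intestine and 5096, 26.2%, towards colon, and the median log2 ratio of intestine-only to colon-only regions over all genes was -0.49. At equal list number 14.7% were called towards intestine and 10.1% towards colon, with a median of 0.00. The genes called towards colon were longer, with a median of 37844 bp against 18962 bp for intestine and 16555 bp for genes called to neither.

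At gene starts the order was opposite to that of the calls with all peaks and the same as that of the calls at equal list number. A peak within 1 kb of a start was present in intestine only at 1711 genes, 7.91% of all 21631, and in colon only at 1251, 5.78%. It was present in both at 10361 and in neither at 8308. At equal list number the shares were 10.3% for intestine only and 4.01% for colon only. For 4357 genes the strand was not given in the reference used, so both gene ends were counted as starts. Among the other genes 1343 (7.77%) had a peak in intestine only and 906 (5.24%) in colon only.

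The labelled epithelium was checked first. Over all 21631 genes, 47.9% had a start peak in both lists, 38.4% in neither, 7.91% in intestine only and 5.78% in colon only. Of 16 pan-epithelial markers, 13 had a gene-start peak in both lists, among them the adhesion genes Cdh1 and Epcam, the keratin gene Krt18 and the claudin genes Cldn3, Cldn4 and Cldn7. Among the other pan-epithelial markers, the keratin gene Krt8 had a start peak in intestine only, 1 marker had one in colon only and 1 in neither. Of 14 housekeeping genes 13 had a start peak in both lists. By contrast, a start peak in both lists was found at 1 of 16 mesenchyme markers (the filament gene Vim), at 3 of 17 blood and immune markers, at 0 of 12 endothelial markers and at 3 of 13 enteric neural crest markers. A start peak in 1 list only was found at 4 mesenchyme markers for intestine (Col1a1, Foxf1, Myh11 and Pdgfra) and at 2 for colon, at 0 and 2 blood markers, at 2 and 2 endothelial markers and at 3 and 1 neural crest markers. Calls over all regions are read against 6.13% of all genes towards intestine and 26.2% towards colon. Of the 16 pan-epithelial markers 4 were called each way. Of mesenchyme markers with a region, 0 of 16 were called towards intestine and 7 towards colon. Of blood and immune markers the counts were 0 and 8 of 15, with 13 colon-only and 3 intestine-only regions at the leukocyte phosphatase gene Ptprc. Of neural crest markers they were 0 and 4 of 12. Of endothelial markers they were 2 and 7 of 12, and at the vascular receptor gene Kdr 11 regions were colon-only and 3 intestine-only. At equal list number, where the shares over all genes were 14.7% and 10.1%, the counts were 5 and 3 of 16 for pan-epithelial markers, 0 and 4 of 16 for mesenchyme, 1 and 1 of 13 for blood, 2 and 4 of 12 for endothelium and 1 and 2 of 12 for neural crest. A region was found at 16 of 16 mesenchyme, 15 of 17 blood and immune, 12 of 12 endothelial and 12 of 13 neural crest markers. Over all genes one was found at 19447 of 21631. The markers of these lists without a region were Sox10, which defines neural crest, the globin gene Hba-a1 and the blood factor gene Lyl1. They had no start peak in either list. The part of other cell types in the colon-only regions was not tested.

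Among intestinal transcription factors, Cdx2 had its peaks in the same places in both organs. All 6 of its regions were shared (5 at equal list number, with 1 intestine-only), from the one over its start to one 14.6 kb away, and the start region and 4 others had an E13 intestine peak too. At the HNF4 gene Hnf4a, 3 regions were intestine-only, 4 colon-only and 5 shared, and at its paralog Hnf4g the counts were 6, 7 and 7. Cdx1 had 2 intestine-only, 1 colon-only and 2 shared regions, with a gene-end peak in intestine only. Of 22 members with a region, 1 was called towards intestine (Gata5, with 4 against 1) and 5 towards colon, against backgrounds of 6.13% and 26.2%. Among those called towards colon were Gata6 (6 against 16), the nuclear receptor gene Nr5a2 (5 against 13) and the pioneer factor gene Foxa2 (4 against 10). At equal number 4 of 22 were called towards intestine, including Cdx1, Hnf4g and the homeobox gene Isx, and 1 towards colon. The shares over all genes were then 14.7% and 10.1%, so the count towards intestine was near that of genes at large. A start peak was in both lists at 16 of the 23 factors, against 47.9% of all genes.

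The proximal factor gene Gata4 had 3 regions in each organ alone and 6 in both, and a peak at a gene end in intestine only. That peak, chr14:63271516-63271766, was 250 bp wide and had a hindstomach peak in it. Sox2, a foregut factor not active in normal bowel epithelium, had 2 intestine-only, 12 colon-only and 6 shared regions within 100 kb. At equal number 2 were intestine-only and 7 colon-only. A peak near its start was in both lists.

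Genes of fat absorption had more members called towards intestine than any other of the lists. Of 17 members 16 had a region, and 6 were called towards intestine and 3 towards colon, against 6.13% and 26.2% of all genes. The median log2 ratio of the list was 0.92, against -0.49 for all genes. At equal number the calls were 9 and 0 of 15, with a median of 1.58, against 14.7% and 10.1% of all genes. With peaks of at least 150 bp they were 4 and 3 of 13, against 6.53% and 15.2% of all genes, and the median was 0.00, as it was over all genes. Start peaks were in intestine only at 6 of 17 members, in colon only at 1 and in both at 7. Over all genes these shares were 7.91%, 5.78% and 47.9%. The 41 intestine-only regions of the list were found in none of the 5 other libraries in 73.2%, against 54.4% over all intestine-only regions. An E13 intestine peak was in 4 of the 41, against 20.5% over all intestine-only regions. Of the 42 shared regions of the list, 36 had a hindstomach peak, against 69.4% over all shared regions.

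Apob, which encodes the core protein of chylomicrons (chr12:7977629-8016839), had 11 intestine-only, 7 colon-only and 4 shared regions. Its start had 2 intestinal peaks, one over the start itself and one 0.901 kb away, and both of those positions had an E13 intestine peak, whereas neither colon nor hindstomach had a peak there. None of the 11 intestine-only regions had a hindstomach peak, but 1 had a forestomach peak, 1 an E13 stomach peak and 2 a knockout stomach peak. All 4 shared regions had a hindstomach peak, and 3 of them lay downstream of the gene. Mttp, which loads lipid onto that protein (chr3:138089855-138143418), had a start peak in both organs and 6 intestine-only against 2 colon-only regions. Those 6 lay between 8.54 kb and 56.7 kb from the start, and 1 of them had a hindstomach peak.

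Other members of the list differed among themselves. At Npc1l1, the sterol uptake channel, both regions were intestine-only, 1 at the start and 1 at 8.70 kb, and neither had a peak in any of the 5 other libraries. Apoa4, an apolipoprotein gene, had 3 intestine-only regions, 0 colon-only and 1 shared. None of these 3 had an E13 intestine or hindstomach peak. Plin2, a lipid droplet coat gene, had 4 intestine-only, 0 colon-only and 4 shared regions, and Mogat2, which rebuilds triglyceride, had 3, 1 and 5. Abcg5 had 2 intestine-only, 0 colon-only and 1 shared. Abcg8, its partner, is transcribed from the same stretch of DNA in the other direction. The peak shown above in capitals thus lay at both starts and was counted as the 1 intestine-only region of Abcg8. The other way, Cd36 had 3 intestine-only and 8 colon-only regions, the triglyceride enzyme gene Dgat2 2 and 7, and the lipoprotein receptor gene Scarb1 1 and 4, and none of these was called at equal number. The fatty acid binding gene Fabp2 had 2 regions in each organ alone and 4 in both, with a start peak in intestine only. Apoc3, a lipoprotein gene, had 1 colon-only region and no other, with a gene-end peak in colon only, and Dgat1 had 1 shared region. Fabp1 had no region of its own and no start peak in either list.

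**Figure D3:**
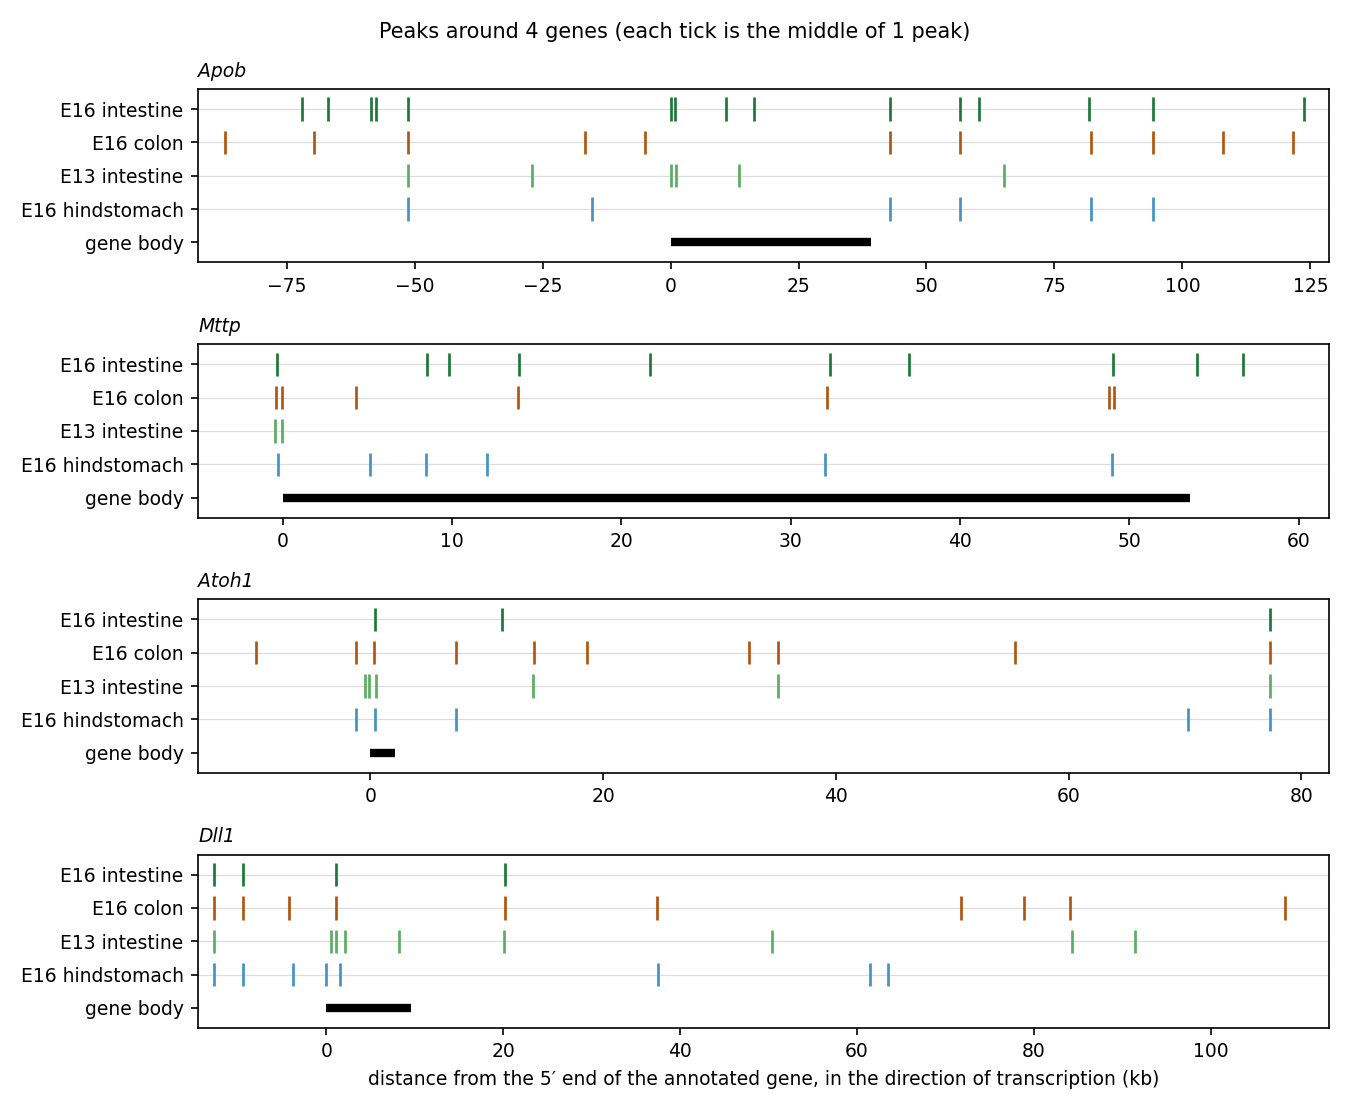
Each panel plots the peaks of 4 libraries (rows, 1 tick per peak middle) by distance in kb from the 5′ end of the annotated gene, with the gene body as a black bar. Within the ranges drawn, Apob has 15 intestinal and 11 colon peaks, Mttp 10 and 7, Atoh1 3 and 10, and Dll1 4 and 10, and of the 4 libraries drawn E16 and E13 intestine have peaks over the start of Apob.

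The brush border carries the enzymes and transporters of digestion. Of 17 brush border genes with a region 1 was called towards intestine, the scaffold gene Ush1c with 3 against 1, and 4 towards colon, including the peptidase gene Mme with 1 against 9, which is near the shares over all genes of 6.13% and 26.2%. At equal number the counts were 6 and 2, against 14.7% and 10.1%, with Dpp4 (5 against 1), Enpep (6 against 2) and Mep1a (5 against 2) among the 6. The start of Mep1a and that of the disaccharidase gene Sis had a peak in intestine only, and no brush border gene had one in colon only. Over all genes these shares were 7.91% and 5.78%. The lactase gene Lct had 0 intestine-only, 2 colon-only and 1 shared region and no start peak. Of 15 nutrient transporters 0 were called towards intestine and 3 towards colon, again near those shares, and at equal number 5 and 1. The glucose transporter gene Slc5a1 had 3 intestine-only and 7 colon-only regions and a start peak in both lists. The peptide transporter gene Slc15a1 had 5 and 3.

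Of the bile acid genes, Slc51a, a subunit of the basolateral exporter, was one-sided. It had 2 intestine-only regions, 1 of them at its start, no colon region and none found in E13 intestine or hindstomach. Slc10a2, the apical uptake transporter of the distal small intestine, had 1 intestine-only region, which was at its start, against 7 colon-only and 3 shared. The bile acid receptor gene Nr1h4 had 8, 6 and 4, and 6 of its 8 intestine-only regions had a hindstomach peak. Of the 7 genes 1 was called each way, with all peaks and at equal number, too few to set against the shares over all genes. Among the 10 proximal small intestine genes 0 were called towards intestine and 3 towards colon, against 6.13% and 26.2% of all genes: Onecut1 (1 against 9), Onecut3 (3 against 7) and Cck (0 against 5). At equal number Onecut3 was still called towards colon (3 against 7), and the duodenal factor gene Pdx1 (5 against 2) was called towards intestine. The peak at the start of Cck in colon lay in a region that also had peaks in E13 intestine and hindstomach.

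**Figure D4:**
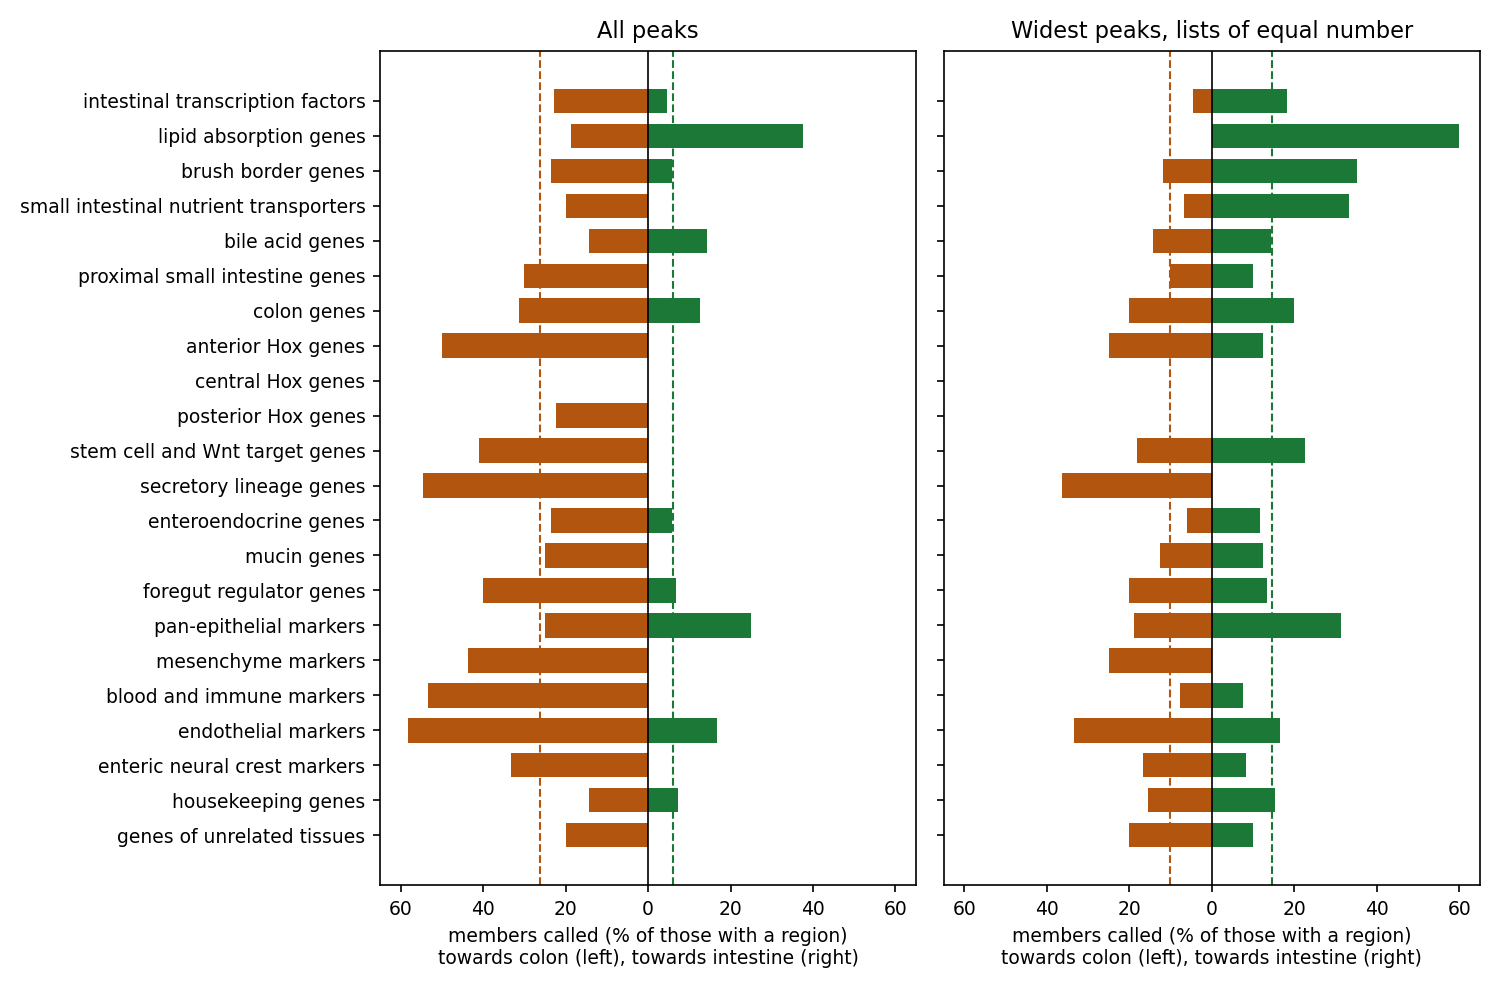
Bars give the percent of members with a region that were called towards colon (left, orange) or intestine (right, green) for each list, with all peaks in the left panel and with lists of equal number in the right panel. Dashed lines are the shares over all genes, 26.2% and 6.13% at left and 10.1% and 14.7% at right. The lipid absorption bar reaches past the green line in both panels, as do those of colon genes and of pan-epithelial, endothelial and housekeeping genes. The secretory lineage bar reaches past the orange line in both panels. So do those of anterior Hox, stem cell and Wnt target, foregut regulator and colon genes and of mesenchyme, endothelial and neural crest markers.

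Colon genes gave no single direction. Of 16 members, 2 were called towards intestine and 5 towards colon, against 6.13% and 26.2% of all genes, and at equal number 3 and 3 of 15, against 14.7% and 10.1%. The count towards colon with all peaks was thus near that of genes at large. All 3 genes of the epithelial sodium channel, through which the distal colon takes up salt, were among the 5: Scnn1a had 0 intestine-only and 3 colon-only regions, Scnn1b 1 and 6, and Scnn1g 2 and 6. Scnn1a and Scnn1b stayed called at equal number, with 0 against 3 and 1 against 5, and Scnn1g had 2 against 3. The region at the start of Scnn1b had E13 intestine and hindstomach peaks as well. The water channel gene Aqp4 had 1 and 6. Against the label of the list, the chloride exchanger gene Slc26a3 had 4 intestine-only and 1 colon-only region and a start peak in intestine only, and Cd177 had 3 and 1. With peaks of at least 150 bp the calls were 0 towards intestine and 7 towards colon, against 6.53% and 15.2% of all genes.

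Hox genes are lined up in 4 clusters, with those at the posterior end active in the hindgut. By nearest gene, 9 of 16 posterior, 3 of 11 central and 8 of 12 anterior genes had a region. These genes lie close together, and each region was given to only 1 of them. With gene bodies extended by 10 kb, 13 posterior, 10 central and 12 anterior genes had a region. Of the posterior genes 0 were called towards intestine and 2 towards colon, Hoxb13 (0 against 2, with 3 shared) and Hoxc13 (1 against 5, with 1 shared), which is below the 26.2% of all genes, and none was called at equal number. No E13 intestine peak was found in the 5 regions of Hoxb13, and 1 of the 5 had a hindstomach peak. A start peak in colon only was found at Hoxd11, and Hoxa13 and Hoxb9 had one in both organs. Of the 8 anterior genes, 4 were called towards colon, among them Hoxb1 (0 against 4), which stayed called at equal number with 0 against 2. Over whole clusters the intestine-only and colon-only counts were 6 and 9 for Hoxa, 3 and 11 for Hoxb, 3 and 9 for Hoxc and 3 and 7 for Hoxd. Over all regions there were 1.99 times as many colon-only as intestine-only ones.

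Genes of the secretory lineage included the main regulators of goblet cells. Of 11 members with a region 0 were called towards intestine and 6 towards colon, against 26.2% of all genes. At equal number the counts were 0 and 4, against 10.1%. The 4 were Atoh1, the master regulator of secretory cells, the Notch ligand gene Dll1, Agr2 and the goblet cell gene Clca1. Start peaks were in both lists at 5 of 13 members, in 1 list only at 1 each way and in neither at 6. Over all genes the shares were 47.9% in both, 7.91% in intestine only, 5.78% in colon only and 38.4% in neither. Of the 40 colon-only regions of the list 62.5% were in none of the other libraries, against 71.7% over all colon-only regions.

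Atoh1 (chr6:64729125-64731245) had 1 intestine-only, 8 colon-only and 2 shared regions. One shared region, chr6:64729313-64729649, lay in the gene and at its start, and had peaks in E13 intestine and hindstomach. The colon-only regions lay from 1.25 kb to 55.4 kb from the start. Those at 14.1 kb and 35.0 kb, on chr6:64743121-64743291 and chr6:64764034-64764247, had an E13 intestine peak and no hindstomach peak, and those at 1.25 kb and 7.37 kb had a hindstomach peak and no E13 intestine peak. Dll1 had 0 intestine-only, 6 colon-only and 3 shared regions, and none of the 6 had an E13 intestine peak. Agr2 had 1 intestine-only and 3 colon-only regions, 1 at its start, and all 3 had a hindstomach peak. Clca1 had 0, 6 and 1 shared. The mucin gene Muc2, the main product of goblet cells, had 0 intestine-only, 4 colon-only and 4 shared regions and no start peak in either list. With 0 against 1 it was not called at equal number.

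Among the 8 mucin genes with a region, 0 were called towards intestine and 2 towards colon, Muc2 and the transmembrane mucin gene Muc4 with 1 against 7, which is near the 26.2% of all genes. Muc4 stayed called at equal number, with 1 against 6. Muc13 had 2 regions in each organ alone and 4 in both, with a start peak in intestine only. Of 17 enteroendocrine genes, 1 was called towards intestine, the regulator gene Nkx2-2 (5 against 2), and 4 towards colon, including the hormone genes Cck and Sst (2 against 6) and the serotonin enzyme gene Tph1 (0 against 2). Both counts are near the shares of 6.13% and 26.2%. At equal number 2 were called towards intestine and Tph1 alone towards colon, neither count above the shares over all genes of 14.7% and 10.1%.

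Stem cell and Wnt target genes mark the crypt base and its embryonic forerunner. Of 22 members 0 were called towards intestine and 9 towards colon, against 6.13% and 26.2% of all genes. Lgr5, the receptor that marks intestinal stem cells, had 5 intestine-only, 14 colon-only and 7 shared regions, and Sox9 had 5, 11 and 8. Smoc2 had 5, 16 and 3. At equal number 5 members were called towards intestine and 4 towards colon, against 14.7% and 10.1%. The 4 were Ascl2 (1 against 3), Znrf3 (1 against 4), Sp5 (0 against 2) and Notum (0 against 2), and the 5 were Ccnd1 (4 against 1), Cd44 (5 against 2), Lrig1 (7 against 2), Nkd1 (5 against 2) and Tnfrsf19 (2 against 0). Ascl2 had its start peak in intestine only. At the start, 7 of 22 members had a peak in intestine only and 4 in colon only, against 7.91% and 5.78% of all genes. Among the 7 were the cell cycle gene Ccnd1, Myc and the polycomb gene Bmi1, and among the 4 were Axin2 and Sp5.

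Of 15 foregut regulator genes 1 was called towards intestine, Sox21 with 2 against 0, and 6 towards colon, including Sox2 and the basal keratin gene Krt5 (0 against 3), against 6.13% and 26.2% of all genes. The counts were 2 and 3 at equal number, against 14.7% and 10.1%. Of the 10 genes of unrelated tissues with a region, 0 and 2 were called with all peaks and 1 and 2 at equal number. Of all 12, 11 had no start peak in either list, against 38.4% of all genes.

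The genes with the most regions of 1 organ and none of the other were of mixed function. Rhobtb3 (chr13:75869537-75943824) had 7 intestine-only, 0 colon-only and 3 shared regions. The adenosine receptor gene Adora1 had 6, 0 and 4, and the ubiquitin protease gene Usp42 had 6, 0 and 2. Clec2e, Cfap126, Tmbim6, Zfr2, Mgst3, Rnf114 and Ssh1 had 5 and 0 each. On the colon side counts were higher. Anxa2, which encodes an annexin (chr9:69453683-69491792), had 0 intestine-only, 13 colon-only and 9 shared regions. The pluripotency gene Zfp42 had 0, 13 and 1, and Adamts9, Tmem26, Tmeff2 and Adcy2 had 13 colon-only regions each too. Dagla and Tnrc6c had 12 each, and Sphkap and Ppp1r12b 11 each. At equal number Anxa2 had 0 and 8, Sphkap 0 and 10 and Dagla 0 and 9, whereas Adcy2 had 1 and 5.

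Sequences at gene starts were compared in 21045 RefSeq windows of 300 bp, the 250 bases before and 50 after a start. Of these, 1503 (7.14%) had a peak in intestine only, 705 (3.35%) in colon only, 7702 in both and 11135 in neither. The median content of G and C was 59.3% in windows of intestine only, 61.7% in those of colon only, 62.0% in those of both and 50.7% in those of neither. The ETS motif CCGGAAG was found in 16.8% (15.0 to 18.8) of intestine-only windows and 9.36% (7.43 to 11.7) of colon-only ones, against 11.7% of all windows. The HNF1 part GTTAAT was found in 5.66% (4.60 to 6.94) and 2.70% (1.73 to 4.17), against 6.25% of all. For the HNF4 part AAGTCCA the shares were 4.72% (3.76 to 5.92) and 2.41% (1.51 to 3.83), against 4.00% of all. In colon-only windows each of these 3 was less frequent than in all windows, but most of all windows had no peak. Windows with no peak held the HNF1 letters in 8.51%, the HNF4 letters in 4.70% and the ETS letters in 3.63%. In windows with a peak in both lists the shares were 3.43%, 2.99% and 22.5%. Of these, the HNF1 and HNF4 shares lay within the colon-only intervals and the ETS share above it. The intervals of the 2 organs did not overlap for the ETS and HNF1 letters and overlapped narrowly for the HNF4 letters.

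**Figure D5:**
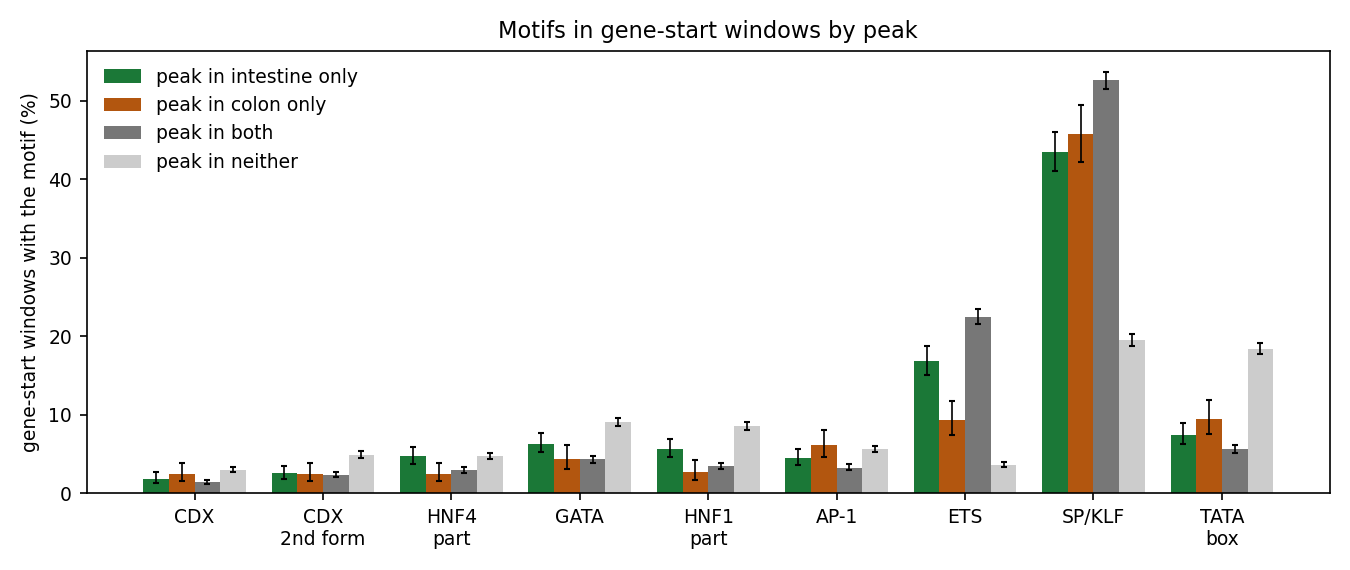
The plot gives the percent of gene-start windows (y axis) that hold each motif on either strand, by whether the window had a peak in intestine only, colon only, both or neither, with 95% Wilson intervals as bars. ETS and SP/KLF motifs are highest in windows with a peak in both, and ETS is higher in intestine-only windows (16.8%) than in colon-only ones (9.36%).

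For the other motifs the intervals of the 2 organs overlapped. The CDX motif TTTATGG was found in 1.86% (1.29 to 2.68) of intestine-only and 2.41% (1.51 to 3.83) of colon-only windows, and its second form TTTATTG in 2.53% and 2.41%. GATAAG was found in 6.32% and 4.40%, the AP-1 motif TGACTCA in 4.46% and 6.10%, GGGCGGG in 43.5% and 45.8% and TATAAA in 7.45% and 9.50%. Over all windows these were 2.28%, 3.71%, 6.95%, 4.69%, 34.2% and 12.7%. A match gives only letters that are present, not a bound site, and windows of neighbouring genes can share bases.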

How the data were processed

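ATAC-seq measured open chromatin in 7 libraries, 1 per group. As tools, the submitters' processing notes list MACS2, Bowtie2 and cutadapt, with no role or order, and as builds GRCm38 and mm10. Versions, thresholds and any pooling of embryos were not given there. The files the authors deposited hold 3 columns, chromosome, start and end, in no other unit than positions: there is no height, score or read count, so depth is unknown. The files do not say if the first base is 0 or 1, and positions are printed as deposited.

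Overlapping peaks (at least 1 bp) on chromosomes 1 to 19 and X were merged and classed. Regions were given to the nearest protein-coding gene within 100 kb, and starts were taken within 1 kb, from RefSeq GRCm38.p6. The annotation table used gives gene ends but no exons. Of the 312 genes in 15 program lists and 7 marker lists all were found, and a gene can be in more than 1 list. Members and lists were chosen with earlier results of these data known. Named genes are, per list, up to 4 with the largest excess of at least 2, the 10 most one-sided genes and the 6 widest regions per organ, the 5 longest runs per class, list genes with a start peak in 1 list, and Cdx2, Cdx1, Hnf4a, Gata4, Sox2 and 1 gene that is not reported here. The text prints a part of them and some other list members, which were picked after their values were seen. The counting was tested on simulated data. Lists of equal number, peaks of at least 150 bp, other overlaps, windows and gene assignments were tried as alternatives. Python 3.11.15, numpy 2.4.6, pandas 2.3.3, scipy 1.17.1 and matplotlib 3.10.9 were used.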

Additional observations from a re-analysis of the deposited data

Results flagged for a closer look

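Peaks on chromosome Y were left out of all counts above. The E16 intestine list held 719 of them and the E16 colon list 1111, the 2 highest numbers of the 7 lists, of which the lowest was 69 in the knockout stomach. The sex of the embryos was not given in the labels used here.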

How the results depend on the processing

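The direction of the gene-start result was the same under each alternative run for it, whereas the counts of regions and of called genes moved with the number of peaks taken. The direction of the gene calls turned: more genes were called towards colon with all peaks, and more towards intestine at equal list number. Intestine-only regions made up 33.99% of unshared regions when an overlap of at least 0.5 of the shorter peak was asked for, 32.8% when peaks within 200 bp counted as shared, 31.2% within 1000 bp, 38.1% with peaks of at least 150 bp and 49.8% at equal list number. The last share was fixed near an even split by the trimming. With peaks of at least 150 bp there were 15372 intestine-only, 24970 colon-only and 23958 shared regions, and at equal number 46028 colon-only ones. At gene starts lay 17.6% of intestine-only and 4.99% of colon-only regions of at least 150 bp, and 4.24% of colon-only regions at equal number. E13 intestine had a peak in 24.4% of intestine-only and 10.5% of colon-only regions when a peak within 200 bp counted, in 16.6% and 7.14% away from gene starts, and in 33.6% and 16.05% of those of at least 150 bp. For hindstomach these were 33.3% and 18.7%, 26.3% and 15.7%, and 45.5% and 26.7%. Genes called towards intestine numbered 1793 with gene bodies extended by 10 kb and 2789 at equal number. Those called towards colon numbered 1912 at equal number and 2497 with peaks of at least 150 bp.

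Of the 15 program lists, 1 had more members called towards intestine than towards colon with all peaks, 6 at equal number and 4 with peaks of at least 150 bp. The difference in called members, intestine minus colon, turned to 3 for intestinal transcription factors, 4 for brush border genes, 4 for nutrient transporters, 1 for stem cell and Wnt target genes and 1 for enteroendocrine genes at equal number. With peaks of at least 150 bp it turned to 3 for brush border genes, 1 for nutrient transporters, 1 for mucins and 1 for housekeeping genes, and away from gene starts to 1 for housekeeping genes. The cause was not tested. No paired analysis was possible because each group had 1 library. The lists give no depth, so a peak in 1 list only can mean a signal near the caller's threshold in the other.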
